A study of Mus musculus with 24 samples.

Results

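The regions described here are stretches of chromatin inside the bodies of protein-coding genes where a peak of H3K9ac, the acetylation of lysine 9 of histone H3, was called in some libraries and not in others. The cells were 4T1, a line from a mouse mammary carcinoma, grown as spheroids. H3K9ac was mapped by ChIPmentation, in which the Tn5 transposase tags antibody-bound chromatin on the beads. Peaks of the 12 H3K9ac libraries on chromosomes 1 to 19 and X were merged into 38586 regions. A region was kept if it overlapped a protein-coding gene body of GENCODE vM21, lay more than 5 kb from every protein-coding transcription start site (TSS), and was called in 3 to 11 of the 12 libraries. This gave 2051 variable gene-body regions in 1277 host genes. They were chosen by these calls, so the calls themselves are given as a description and were not tested.

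The 4 groups had 3 libraries each and were spheroids of 4T1 cells that carry an inducible Cas9. SCR cells carried a scramble guide, which the methods of the study describe as directed against EGFP. CPT1a_KO cells were knocked out for CPT1a, the carnitine palmitoyltransferase needed to take long-chain fatty acids up into mitochondria. CPT1a_KO_Ac cells carried the same knockout and received 5 mM acetate. KAT2a_KO cells were knocked out for KAT2a, an acetyltransferase of histones. All spheroids were taken on day 5. The medium of SCR, CPT1a_KO and KAT2a_KO held 75 µM palmitate, while the labels do not state palmitate for the acetate group. A figure legend of the study describes palmitate in the cultures with and without acetate. Each knockout was made with 2 guides and selected with puromycin, and the guide of a given library is not stated. The comparisons with SCR ask how H3K9ac differs without CPT1a or KAT2a, and that of CPT1a_KO_Ac with CPT1a_KO asks how it differs when acetate is supplied. Nothing in the labels says that the 3 libraries of a group came from separate cultures, so p-values measure only the spread between these libraries, which may be technical.

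H3K9ac is deposited by acetyltransferases such as KAT2A and is strongest around active promoters. Weaker H3K9ac also marks enhancers, many of which lie in introns, where transcription factors such as AP-1, TEAD and RUNX bind. A peak inside a gene body may therefore mark an enhancer of the host gene or of a neighbour, an unannotated promoter, or a copied sequence, and peak lists alone do not tell these apart.

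The sequences of 7 regions are shown because the named regions differed in what they hold. Each is 300 bases around the highest summit in GRCm38 (mm10). In the windows inside Zdhhc18, Fnip2 and Nhsl1, capitals mark matches to the motifs searched, which were AP-1 (TGANTCA) in Fnip2, TEAD (GGAATG) and RUNX (TGTGGTT) in Zdhhc18, and RUNX, CTCF (CNAGGNGGC) and SP/KLF (GGGCGG) in Nhsl1, on either strand.
Zdhhc18, chr4:133626233-133626532, plus strand: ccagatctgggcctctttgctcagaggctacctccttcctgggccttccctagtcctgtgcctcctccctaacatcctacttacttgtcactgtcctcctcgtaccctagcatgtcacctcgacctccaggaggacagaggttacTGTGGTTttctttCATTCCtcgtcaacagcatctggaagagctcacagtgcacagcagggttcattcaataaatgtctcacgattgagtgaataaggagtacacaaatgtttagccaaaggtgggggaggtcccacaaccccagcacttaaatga
Fnip2, chr3:79559738-79560037, plus strand: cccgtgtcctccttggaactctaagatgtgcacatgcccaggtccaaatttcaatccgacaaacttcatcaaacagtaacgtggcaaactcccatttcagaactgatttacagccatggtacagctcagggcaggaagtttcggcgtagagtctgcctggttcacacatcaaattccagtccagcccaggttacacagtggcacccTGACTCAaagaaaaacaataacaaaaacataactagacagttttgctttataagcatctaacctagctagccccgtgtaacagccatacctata
Nhsl1, chr10:18506796-18507095, plus strand: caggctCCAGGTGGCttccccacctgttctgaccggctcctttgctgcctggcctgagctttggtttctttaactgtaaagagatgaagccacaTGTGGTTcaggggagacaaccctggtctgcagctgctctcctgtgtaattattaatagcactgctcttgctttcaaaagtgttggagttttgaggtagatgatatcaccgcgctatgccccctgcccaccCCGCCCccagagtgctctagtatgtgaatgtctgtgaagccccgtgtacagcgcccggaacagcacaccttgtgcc

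In the other 4 windows, capitals mark bases that lie in exact stretches of 31 or more bases shared with the spliced transcript of another protein-coding gene, and the strand is that of the transcript. The window inside Zranb3 shared 300 bases with Rpl28 and the window inside Pacsin2 shared 300 bases with Vkorc1l1. The windows inside Mroh5 and Dock8 shared 300 and 290 bases with Ndufb4, and shared a single run of 276 bases with each other. They are therefore near-identical, and the peak list does not tell whether reads came from one copy, the other or the parent gene.
Zranb3, chr1:128038569-128038868, plus strand: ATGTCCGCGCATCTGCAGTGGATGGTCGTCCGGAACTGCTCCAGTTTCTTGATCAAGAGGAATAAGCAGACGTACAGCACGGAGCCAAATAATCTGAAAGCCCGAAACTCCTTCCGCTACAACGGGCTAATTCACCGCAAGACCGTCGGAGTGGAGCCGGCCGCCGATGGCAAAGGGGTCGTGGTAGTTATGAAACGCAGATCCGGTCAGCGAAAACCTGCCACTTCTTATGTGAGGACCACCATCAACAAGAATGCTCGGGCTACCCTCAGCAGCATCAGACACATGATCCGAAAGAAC
Pacsin2, chr15:83405836-83406135, minus strand: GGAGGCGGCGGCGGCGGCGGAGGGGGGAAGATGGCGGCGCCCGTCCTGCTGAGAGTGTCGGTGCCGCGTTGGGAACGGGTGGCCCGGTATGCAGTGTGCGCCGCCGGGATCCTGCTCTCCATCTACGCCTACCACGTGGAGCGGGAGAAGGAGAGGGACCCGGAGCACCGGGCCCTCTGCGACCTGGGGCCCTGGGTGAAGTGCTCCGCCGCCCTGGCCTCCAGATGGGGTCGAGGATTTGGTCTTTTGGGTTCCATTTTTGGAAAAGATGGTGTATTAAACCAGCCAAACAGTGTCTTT
Mroh5, chr15:73809631-73809930, minus strand: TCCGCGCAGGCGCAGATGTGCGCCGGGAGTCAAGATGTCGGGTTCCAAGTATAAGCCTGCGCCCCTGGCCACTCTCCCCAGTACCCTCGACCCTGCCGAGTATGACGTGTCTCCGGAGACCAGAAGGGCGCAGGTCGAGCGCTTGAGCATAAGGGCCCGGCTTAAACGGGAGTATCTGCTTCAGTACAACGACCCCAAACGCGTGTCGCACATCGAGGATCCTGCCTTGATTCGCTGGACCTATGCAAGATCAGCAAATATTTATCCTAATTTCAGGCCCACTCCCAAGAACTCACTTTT
Dock8, chr19:25033122-25033421, plus strand: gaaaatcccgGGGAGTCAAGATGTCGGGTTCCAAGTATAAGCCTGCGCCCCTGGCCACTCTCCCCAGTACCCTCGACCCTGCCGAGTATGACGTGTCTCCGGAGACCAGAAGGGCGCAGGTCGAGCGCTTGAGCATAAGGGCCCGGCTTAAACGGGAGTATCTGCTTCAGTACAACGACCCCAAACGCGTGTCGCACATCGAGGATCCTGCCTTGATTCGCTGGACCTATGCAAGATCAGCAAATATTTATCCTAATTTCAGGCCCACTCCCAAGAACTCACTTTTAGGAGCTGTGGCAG

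One library stood apart. CPT1a_KO replicate 3 had the shortest list, with 16201 peaks against 34330 in the longest, and called 65 of the 2051 regions. Read depth is unknown, so a calling depth, which is the background coverage per base that the peak caller used, was recovered from the deposited values. It was 0.55 in that library and ran from 0.66 to 2.52 in the other 11. A total of 294 regions were called in every library but this one, so 14.4% of the regions had the pattern of 3 SCR, 2 CPT1a_KO, 3 CPT1a_KO_Ac and 3 KAT2a_KO calls, including 1 region that missed another CPT1a_KO library. Without it, 864 gene-body regions were called in all 11 other libraries and 1757 in 3 to 10 of them. Most comparisons of calls and ranks that use CPT1a_KO are given with and without it. As a check of the cells, the promoters of 7 of 7 epithelial markers were called in all 12 libraries, as against 0 of 5 leukocyte and 0 of 3 endothelial markers. Among the leukocyte markers Cd68 was called in 2 libraries, and among 4 fibroblast markers Pdgfra was called in 12, Col1a1 in 11 and Col1a2 and Dcn in 0. The promoters of Cpt1a, Kat2a and Rela, which encodes the NF-kB subunit p65, were called in all 12 libraries. A promoter peak does not test a knockout. None of the 3 genes held a variable region, and Cpt1a held 1 region more than 5 kb from a TSS that did not meet the rule.

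Calls differed widely between libraries of the same group. SCR replicates 1, 2 and 3 called 1616, 1059 and 1147 of the variable regions. CPT1a_KO called 1234, 1480 and 65, and CPT1a_KO_Ac called 1083, 705 and 1363. KAT2a_KO called 1423, 1647 and 1108. All groups overlapped. The means were 1274 ± 299 in SCR, 926 ± 756 in CPT1a_KO, 1050 ± 330 in CPT1a_KO_Ac and 1393 ± 271 in KAT2a_KO (SD, n = 3). Without replicate 3, the mean of CPT1a_KO was 1357 ± 174 (SD, n = 2), so its difference from SCR changed from -348 to 83 regions, and that of CPT1a_KO_Ac from CPT1a_KO changed from 124 to -307.

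The number of calls moved with the calling depth. Over 12 libraries Pearson's r was 0.81, and it was 0.73 over the 11 without CPT1a_KO replicate 3, as a description of libraries that share their regions. When every list was reduced to the lowest calling depth, SCR called 242, 141 and 188 of the regions, CPT1a_KO 370, 545 and 62, CPT1a_KO_Ac 328, 545 and 258, and KAT2a_KO 382, 627 and 638. The order of the groups then changed. All 3 KAT2a_KO libraries and all 3 CPT1a_KO_Ac libraries lay above all 3 SCR libraries. As a share of all regions called at that depth, variable regions made up 1.19% to 1.97% in SCR, 0.49% to 3.74% in CPT1a_KO, 1.99% to 3.81% in CPT1a_KO_Ac and 2.79% to 4.30% in KAT2a_KO. As deposited the shares were 5.32% to 5.91%, 0.52% to 7.71%, 4.68% to 7.17% and 6.56% to 8.19%, so that CPT1a_KO_Ac overlapped with SCR and KAT2a_KO did not. At equal depth the group means were 190 ± 50.5 in SCR, 326 ± 245 in CPT1a_KO, 377 ± 150 in CPT1a_KO_Ac and 549 ± 145 in KAT2a_KO (SD, n = 3). The CPT1a_KO mean without replicate 3 was 457.5 ± 124 (SD, n = 2). At this depth 1197 of the 2051 regions were still called in at least 1 library and 609 in 3 or more. The part of depth in the deposited calls was not tested beyond this comparison.

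**Figure D1:**
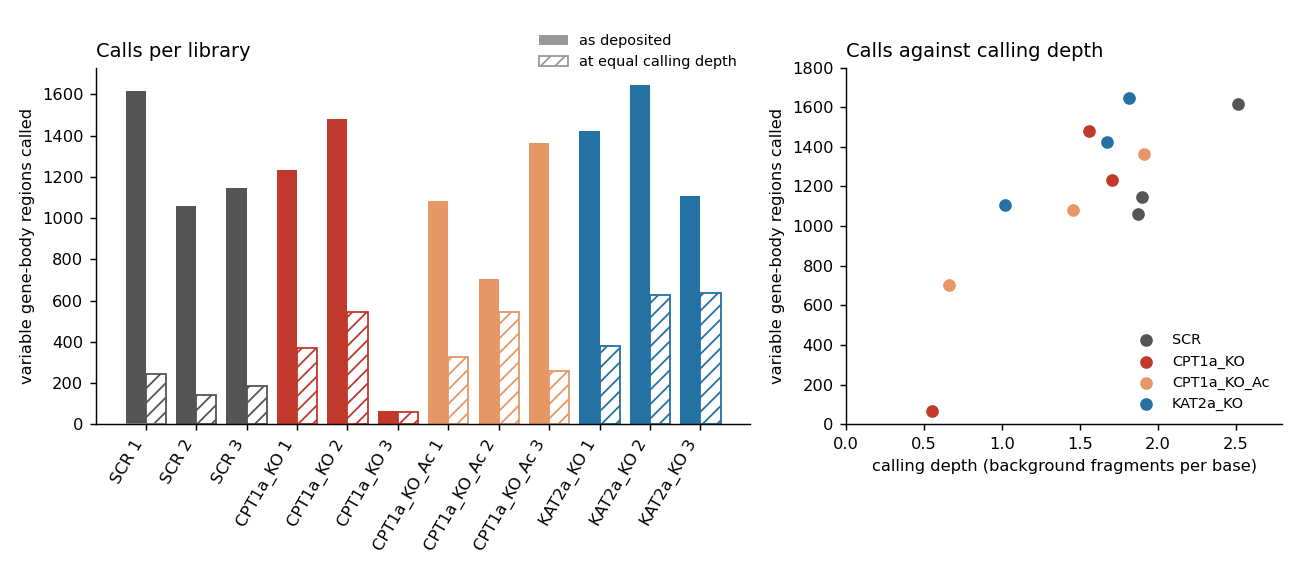
Left, the number of the 2051 variable gene-body regions called in each library, as deposited (filled bars) and at equal calling depth (hatched bars); right, the number as deposited against the calling depth in background fragments per base, 1 point per library, coloured by group. CPT1a_KO replicate 3 sits at 65 calls and a depth of 0.55, and the other 11 libraries lie between 705 and 1647 calls.

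The variable regions lay between the constant and the rare gene-body regions in size and strength. Their median width was 780 bp, as against 2291.5 bp for the 570 gene-body regions called in all 12 libraries and 262 bp for the 3540 called in 1 or 2. Their median fold enrichment, the ratio of the summit signal to the background of the same library, was 5.14 as against 10.4 and 4.27. Both rose in steps with the number of calling libraries, which is tied to the rule. Regions called in 3 libraries were 502 bp wide with a fold enrichment of 4.67, and those called in 11 were 1547 bp wide with 6.81. Just outside the limits, the 768 gene-body regions called in 2 libraries had a median fold enrichment of 4.42 and the 570 called in 12 had 10.4. At the limit of distance, the 120 regions left out for lying up to 0.5 kb nearer to a TSS than 5 kb and the 75 kept up to 0.5 kb beyond it both had a median fold enrichment of 5.00. Of the 2051 regions, 381 were called in 3 libraries, 329 in 11 and the others in 4 to 10.

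**Figure D2:**
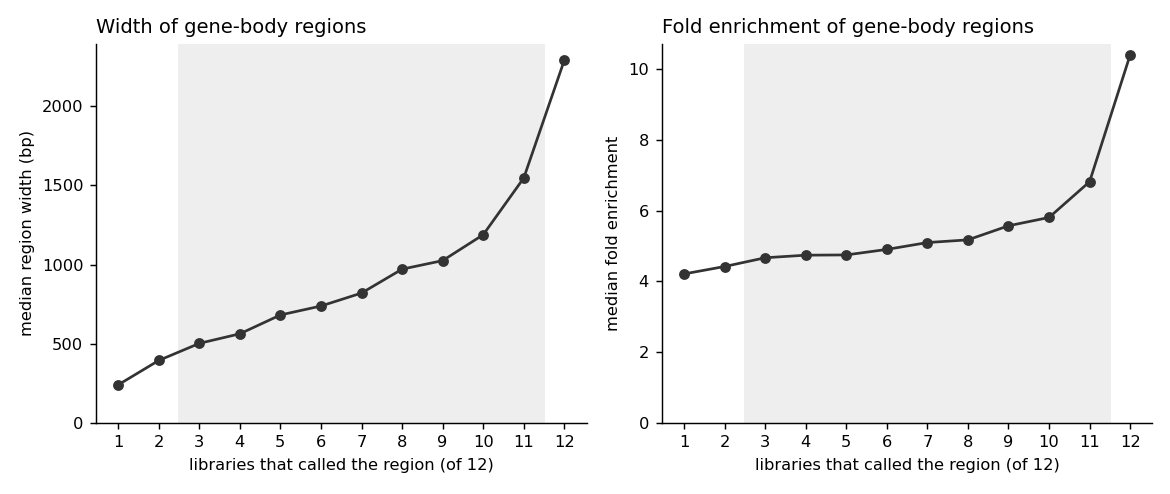
Median width in bp (left) and median fold enrichment (right) of gene-body regions more than 5 kb from a TSS, by the number of libraries that called them; the grey band holds the variable regions. Width rose from 502 bp at 3 libraries to 1547 bp at 11, and then to 2291.5 bp for regions called in all 12.

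Most variable regions were intronic and lay in long genes, as did the constant and the rare gene-body regions. The summit lay in an intron in 94.3% of the variable regions (1935), in a coding exon in 33 and in a UTR exon in 58. The intron share was 93.3% for the constant regions and 93.0% for the rare ones. The median distance to the nearest protein-coding TSS was 15829 bp, as against 16251 bp for the constant regions and 12912.5 bp for the rare ones. The median GC content of the summit window was 48.3%, as against 50.7% and 44.7%, and the median repeat-masked share was 10.3%, as against 7.8% and 15%. The X chromosome held 29 regions. Host genes were long, with a median of 93203 bp as against 17414 bp for all protein-coding genes. The median was 107850 bp for hosts of constant regions and 68678 bp for those of rare ones. The rule asks for more than 5 kb to every TSS, which favours long genes. The host promoter was called in all 12 libraries for 73.5% of host genes (939 of 1277), while 20.9% (267) had no promoter call in any library. These shares were 49.5% and 45.1% over all protein-coding genes. For host genes of constant regions the shares were 79.7% and 15.5%, and for those of rare regions 80.2% and 15.3%. Hosts of variable regions thus had the lowest share called in all 12 libraries among these kinds of gene-body region.

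Of 10 motifs searched in the summit windows, AP-1 was found in 9.46% of the variable regions, 8.03% of all regions and 9.65% of the constant gene-body regions. TEAD letters were found in 16.3%, 14.1% and 13.9%, and RUNX letters in 6.73%, 5.79% and 5.09%. GRHL (AACCNGTT) was found in 2.15% and 2.01% of the variable and of all regions. NF-kB (GGANTTTCC) was found in 1.902% of the variable regions (39), 1.75% of the constant ones, 0.99% of the rare ones and 1.07% of all regions. SP/KLF letters, common in CpG-rich promoters, were found in 7.36% of the variable regions and 16.2% of all regions. CTCF was found in 4.05% and 5.46%, ETS (CCGGAAGT) in 0.39% and 0.54%, CRE (TGACGTCA) in 0.049% and 0.19%, and NRF1 (GCGCATGCG) in 0.049% and 0.11%. A match is a run of letters, not a bound site.

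Copies of spliced transcripts were found among the strongest and narrowest regions. In 65 of the 2051 windows (3.17%), at least 100 bases outside repeats lay in exact stretches shared with the transcript of another protein-coding gene, and 56 of these lay in an annotated processed pseudogene. The share was 2.11% among constant and 1.27% among rare gene-body regions, and 5.98% among intergenic regions called in 3 to 11 libraries. Ribosomal protein genes were the other gene for 27 of the 65. These regions were narrow, with a median width of 408 bp as against 797 bp for the other variable regions, and their median fold enrichment was 6.36 as against 5.12. Of the 20 regions with the highest median fold enrichment, 4 were of this kind, and of the top 100, 15 were. SCR libraries called 46, 39 and 37 of the 65, CPT1a_KO 50, 47 and 10, CPT1a_KO_Ac 29, 18 and 44, and KAT2a_KO 40, 52 and 44. Some libraries called a clearly larger share of the 65 than of the other variable regions. These were CPT1a_KO replicates 1 (76.9% against 59.6%) and 3 (15.4% against 2.77%), KAT2a_KO replicate 3 (67.7% against 53.6%) and SCR replicate 2. The share was clearly smaller in SCR replicate 1 (70.8% against 79.1%), CPT1a_KO_Ac replicates 1 and 2 and KAT2a_KO replicate 1. In the remaining libraries the shares lay close together. Reads from a parent gene and its copies can be placed at either, so the values of these regions are uncertain.

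The Pacsin2 region, in an intron of the gene for a membrane-bending F-BAR protein, had the highest median fold enrichment at 13.4. It was 5.38 and 4.45 in SCR replicates 1 and 2 with no peak in replicate 3, 21.6, 17.8 and 11.3 in CPT1a_KO, 13.2, 6.84 and 17.3 in CPT1a_KO_Ac, and 13.4, 18.1 and 20.4 in KAT2a_KO. All 9 other libraries had higher values than the SCR libraries with a peak, although fold enrichment was not scaled between libraries.

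The Zdhhc18 region lay in an intron of the gene for a palmitoyltransferase of the DHHC family and showed no shared stretch. Its fold enrichment was 7.97, 6.83 and 10.7 in SCR, 14.5 and 12.3 in CPT1a_KO replicates 1 and 2, 14.2, 6.42 and 14.2 in CPT1a_KO_Ac, and 13.2, 17.6 and 8.01 in KAT2a_KO. CPT1a_KO replicate 3 had no peak. The other CPT1a_KO libraries lay above SCR, while CPT1a_KO_Ac and KAT2a_KO overlapped with SCR. In the Zranb3 region, inside the gene for a DNA translocase of stalled replication forks, it was 13.03, 8.02 and 10.7 in SCR, 12.6 and 8.996 in CPT1a_KO, 11.4, 7.57 and 13.1 in CPT1a_KO_Ac, and 11.97, 14.8 and 7.33 in KAT2a_KO, so the groups overlapped. Further strong regions lay in introns of Bcl11a, a zinc finger repressor (median 10.9), Col4a2, a chain of basement membrane collagen (10.6), Cux1, a homeodomain factor (10.4), and Sdhaf3, an assembly factor of succinate dehydrogenase (10.4). Each of these was called in 11 libraries, as were those of Pacsin2, Zdhhc18 and Zranb3. The Sdhaf3 window was 100% repeat-masked.

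Ranks within a library were compared between groups, because fold enrichment is not scaled between libraries. Within each list, all peaks were ranked by fold enrichment from 0 (weakest) to 100. Peaks in the variable regions had median ranks of 39.2, 28.1 and 32.9 in SCR, 20.1, 23.8 and 10.4 in CPT1a_KO, 21.6, 18.3 and 26.6 in CPT1a_KO_Ac, and 25.2, 27.5 and 21.2 in KAT2a_KO. Every SCR library lay above all 9 others. The mean was 33.4 ± 5.56 in SCR (SD, n = 3) and 21.6 ± 5.19 in the others (SD, n = 9), a difference of -11.8 (two-sided exact permutation p = 0.00455 over 220 assignments, the smallest possible, and 0.00909 after Benjamini-Hochberg adjustment over the 2 measures tested in this way). Single comparisons with SCR gave -15.3 for CPT1a_KO, -8.79 for KAT2a_KO and -11.2 for CPT1a_KO_Ac, with pooled SDs of 4.53 to 6.28. Each had an exact permutation p = 0.1, the smallest that 3 against 3 allows, and 0.133 after adjustment over 4 comparisons. CPT1a_KO_Ac lay 4.03 above CPT1a_KO, with a pooled SD of 5.72 (exact permutation p = 0.5). Without CPT1a_KO replicate 3, CPT1a_KO_Ac lay 0.18 above CPT1a_KO, and CPT1a_KO differed from SCR by -11.4. For the 9 other libraries against SCR, the difference without SCR replicate 1 was -8.86 (exact permutation p = 0.0727). At equal calling depth it was -1.42 (exact permutation p = 0.368).

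The rank difference was not particular to the variable regions. Peaks in gene-body regions called in all 12 libraries had median ranks of 56.0 ± 8.33 in SCR (SD, n = 3) and 43.0 ± 9.44 in the others (SD, n = 9), a difference of -13.02 (exact permutation p = 0.0636). The gap between variable and constant regions differed by 1.25 between the others and SCR, with a pooled SD of 4.14 (exact permutation p = 0.655). The SCR lists were also the longest, with 29153 to 34330 peaks as against 16201 to 24594. With lists of equal length the difference of the variable regions was -2.68 (exact permutation p = 0.00909), and the part of list length in the ranks was not tested further. The median width of peaks in variable regions was 391.7 ± 74.3 bp in SCR and 364 ± 49.4 bp in the others, and the log2 widths differed by -0.10 (exact permutation p = 0.5). With a peak over at least 0.5 of the region, the log2 widths differed by -0.28 (exact permutation p = 0.0455). At equal calling depth this difference was also larger, as given below.

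**Figure D3:**
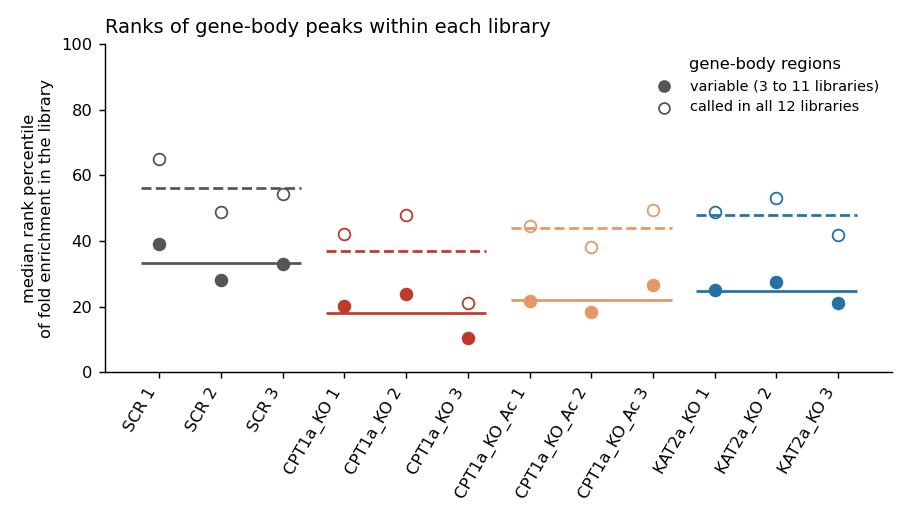
Median rank percentile by fold enrichment of peaks in variable gene-body regions (filled points) and in gene-body regions called in all 12 libraries (open points), 1 pair of points per library; solid and dashed lines are the group means of each. Filled points of SCR sit between 28.1 and 39.2 and those of the 9 other libraries between 10.4 and 27.5.

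Regions called in all 6 libraries of a comparison were then ranked against each other, and regions whose ranks did not overlap between groups were counted. Against SCR, KAT2a_KO had 512 such variable regions, of which 107 (20.9%) were lower and 32 (6.25%) higher, as against 15.2% and 14.5% of all regions tested. For CPT1a_KO_Ac against SCR it was 69 lower (19.3%) and 20 higher (5.59%) of 358, as against 16.7% and 15.1%. For CPT1a_KO against SCR only 24 variable regions were called in all 6, with 5 lower and 1 higher, as against 16.1% and 16.7%. Without replicate 3, 149 (26.9%) were lower and 38 (6.86%) higher of 554, as against 20% and 21.4%. In each of these comparisons, which share the SCR libraries, the lower share was above that of all regions and the higher share below it. Only regions with a peak in every library of a comparison enter these counts. At equal calling depth the counts were 15 lower and 1 higher for KAT2a_KO and 8 and 0 for CPT1a_KO_Ac, and with peaks over at least 0.5 of the region they were 37 and 4, and 16 and 6. For CPT1a_KO they were 2 and 1 at equal depth, and 25 and 1 when replicate 3 was left out as well. The number of regions tested and the share of all regions are not given for these settings. These counts therefore cannot show whether the lower share stayed above that of all regions. The median rank difference with all 6 libraries was -2.78 for KAT2a_KO, -2.68 for CPT1a_KO_Ac and -2.94 for CPT1a_KO, as against 0.02, 0.17 and 0.09 over all regions tested.

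Between CPT1a_KO_Ac and CPT1a_KO, 33 variable regions were called in all 6 libraries, of which 0 were higher and 1 lower with acetate, as against 5.78% and 8.58% of all regions. Without CPT1a_KO replicate 3, 68 (14.3%) were higher and 32 (6.75%) lower of 474, as against 11% and 14.8%. Single regions carry no p-value, because the smallest that an exact test of 3 against 3 libraries allows is 0.1.

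Some regions had a peak in every library of one group and in none of the other. These are a description with no test, because the regions were chosen by their calls. KAT2a_KO against SCR gave 74 regions (3.61%) called only in KAT2a_KO and 70 (3.41%) only in SCR, beside 1.17% and 1.61% of all regions. All regions include those called in 1 or 2 libraries, which the rule left out of the variable regions. Such regions can seldom or never show these patterns, so the shares do not have a like base. CPT1a_KO against SCR gave 7 (0.34%) and 112 (5.46%), beside 0.192% and 2.09%. Without replicate 3 it was 115 (5.61%) and 112 (5.46%), beside 1.9% and 2.09%, so that library decided the count called only in CPT1a_KO. CPT1a_KO_Ac against SCR gave 32 (1.56%) and 112 (5.46%), beside 0.459% and 2.06%. CPT1a_KO_Ac against CPT1a_KO gave 8 (0.39%) only with acetate and 0 only without, beside 0.106% and 0.0155%. Without CPT1a_KO replicate 3 it was 9 (0.44%) and 91 (4.44%), beside 0.109% and 1.26%. Over all 4 groups, 306 regions (14.9%) were called in no SCR library, as against 6.93% of the 20538 regions anywhere that were called in 3 or more libraries. The 3 SCR libraries alone called 43 (2.10%, as against 2.41%) and the 3 KAT2a_KO libraries alone 11 (0.54%, as against 0.37%). At least 1 library of each group called 1138 (55.5%, as against 80.05%). The 20538 regions include those called in all 12 libraries, which the rule leaves out of the variable regions. Those have a call in every group, so they lower the 6.93% and raise the 80.05%. These gaps were therefore in part fixed by the rule.

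Of the 74 regions called only in KAT2a_KO of this pair, those with the highest fold enrichment were the Ndufb4 copies inside Mroh5 and Dock8, the latter the gene for an activator of the GTPase Cdc42. The Mroh5 region had no peak in SCR, values of 9.34 and 9.39 in CPT1a_KO replicates 1 and 2, 8.45, 5.71 and 4.37 in CPT1a_KO_Ac, and 8.98, 10.1 and 8.17 in KAT2a_KO. The Dock8 region had no peak in SCR, 10.2 and 8.27 in CPT1a_KO replicates 1 and 2, 7.82, 7.16 and 7.61 in CPT1a_KO_Ac, and 8.78, 8.90 and 8.60 in KAT2a_KO. Both lacked a peak in CPT1a_KO replicate 3. Their calls fell in the same 8 libraries, and since they share sequence they are not independent of each other. Named for calls in all SCR and no KAT2a_KO libraries were regions of Errfi1, a feedback inhibitor of the EGF receptor (5.59, 6.27 and 6.90 in SCR, and 4.82 in CPT1a_KO_Ac replicate 2), and Phex, an endopeptidase of phosphate balance (8.57, 7.31 and 7.93 in SCR, with lower values in the 5 CPT1a knockout libraries that had a peak).

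Copies also stood among the regions that separated CPT1a_KO from SCR. The Entpd1 region, inside the gene for the ectonucleotidase CD39, shared 297 bases with Ptp4a1. It had no peak in SCR, 8.13, 9.78 and 7.72 in CPT1a_KO, 6.19 in CPT1a_KO_Ac replicate 3 alone, and 9.35, 6.43 and 10.0 in KAT2a_KO. The Arhgap26 region, inside the gene for a GTPase-activating protein, lay in an annotated processed pseudogene and shared stretches with Ost4. It had values of 7.72, 8.42 and 7.91 in SCR, 6.18, 4.29 and 8.78 in KAT2a_KO, and no peak in CPT1a_KO or CPT1a_KO_Ac. The Capn5 region, in a calpain gene, had no shared stretch, with 6.38, 7.36 and 5.14 in CPT1a_KO and no peak in SCR. It was also called in KAT2a_KO (5.25, 4.74 and 6.50) and in CPT1a_KO_Ac replicates 1 and 3 (5.65 and 4.35). Nrp2, which encodes the neuropilin co-receptor of semaphorins and VEGF, held another strong region of the 112 called only in SCR, at chr1:62711350-62715823. Its values were 10.3, 8.36 and 11.04 in SCR, 3.90, 4.22 and 4.81 in CPT1a_KO_Ac, and 6.36, 7.38 and 5.46 in KAT2a_KO, with no peak in CPT1a_KO. SCR lay above every other library there.

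Called in the 3 CPT1a_KO_Ac and 0 CPT1a_KO libraries were regions of Dedd2, a protein with a death effector domain (5.47, 4.99 and 4.79), and Top3a, a DNA topoisomerase (5.19, 4.82 and 5.37). The Dedd2 region was also called in KAT2a_KO (5.06, 3.56 and 4.90). That of Top3a was also called in SCR replicates 1 and 3 (5.20 and 5.02) and KAT2a_KO replicates 2 and 3 (7.26 and 7.13). Against SCR, those named for the acetate group were Dock8 and Clasp1, a protein of growing microtubule ends (6.38, 5.98 and 6.19, no peak in SCR), and those for SCR were Arhgap26 and Sult2a2, a sulphotransferase (8.96, 7.79 and 7.24). Peaks of the Clasp1 region were also called in CPT1a_KO replicate 2 and KAT2a_KO replicates 1 and 2. Those of the Sult2a2 region were also called in CPT1a_KO replicates 1 and 2 and KAT2a_KO replicates 2 and 3. The Sult2a2 window was 100% repeat-masked.

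**Figure D4:**
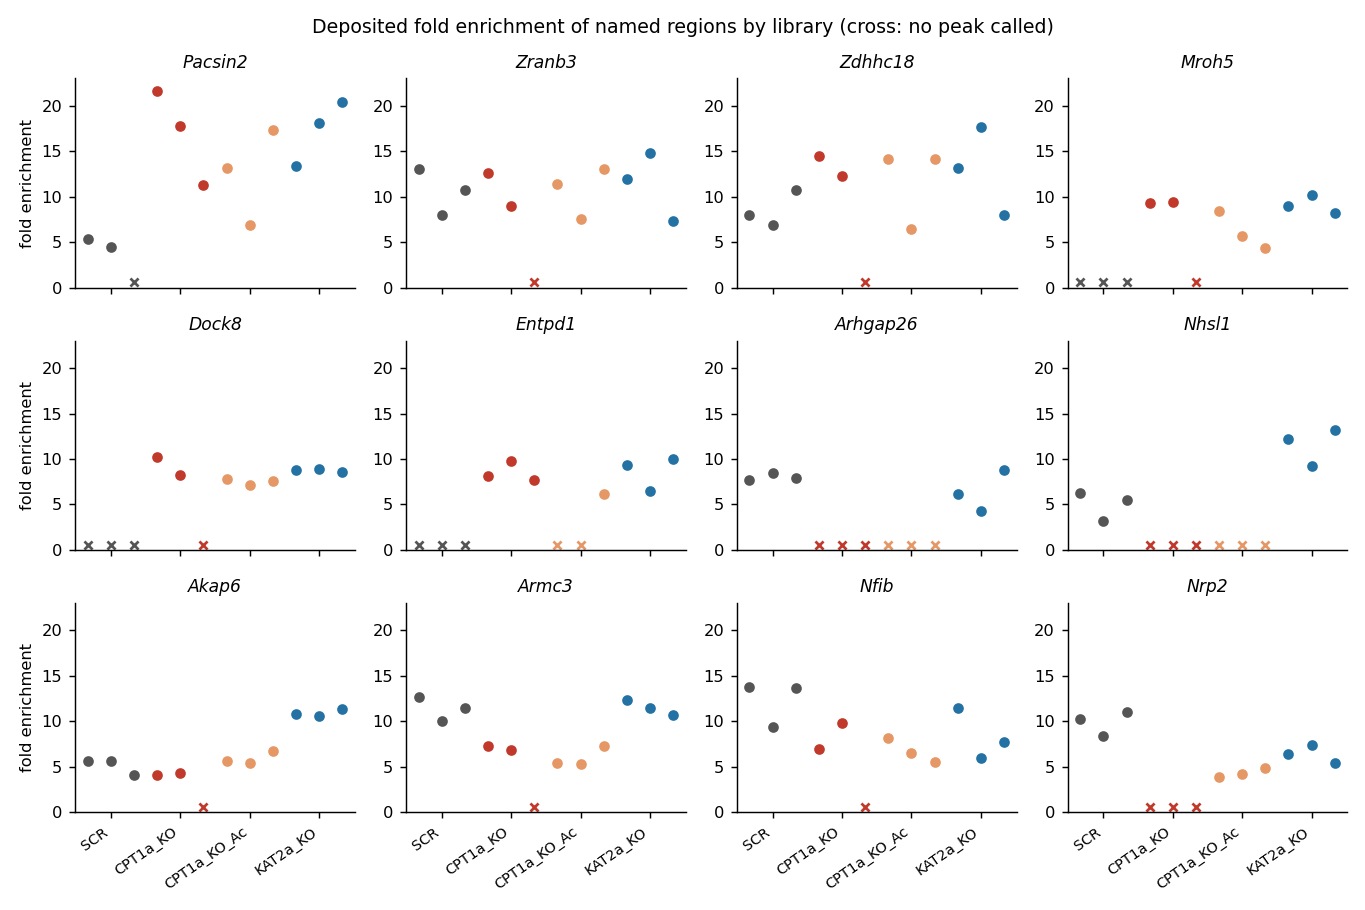
Deposited fold enrichment (y axis, not scaled between libraries) of 12 named regions in the 12 libraries, 1 panel per host gene, coloured by group; a cross marks a library with no peak. Mroh5 and Dock8 have no peak in any SCR library, and Nrp2 is highest in SCR with values of 8.36 to 11.04.

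By rank, Akap6, which encodes an anchoring protein of protein kinase A, was higher in KAT2a_KO at 21.7 ± 4.24 than in SCR at 7.03 ± 4.12 (SD, n = 3). Its fold enrichment was 10.8, 10.54 and 11.3 in KAT2a_KO and 5.67, 5.65 and 4.15 in SCR, with 4.08 and 4.30 in CPT1a_KO and 5.62, 5.42 and 6.71 in CPT1a_KO_Ac. KAT2a_KO lay above all other libraries. The Nhsl1 region also had higher ranks in KAT2a_KO (23.3 ± 8.87) than in SCR (7.07 ± 5.77), with fold enrichments of 12.2, 9.23 and 13.1 against 6.23, 3.24 and 5.52. It had no peak in any of the 6 libraries of CPT1a knockout cells. Syt13, a synaptotagmin gene, was at 17.4 ± 6.72 and 3.98 ± 2.73.

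Lower in KAT2a_KO were regions of Nfib, a nuclear factor I gene (13.5 ± 10.1 against 40.5 ± 9.93), Nrp2 (6.25 ± 1.51 against 30.8 ± 6.24) and A630010A05Rik (19.3 ± 17.5 against 45.7 ± 7.28). The A630010A05Rik window was 79.3% repeat-masked. The same Nfib region was at 8.91 ± 4.46 in CPT1a_KO_Ac against 37.5 ± 10.4 in SCR when ranked among the regions of that comparison. Its fold enrichment was 13.8, 9.39 and 13.7 in SCR, 6.94 and 9.78 in CPT1a_KO, 8.15, 6.57 and 5.54 in CPT1a_KO_Ac, and 11.46, 5.94 and 7.72 in KAT2a_KO.

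In CPT1a_KO_Ac against SCR, the Armc3 region fell furthest in rank beside A630010A05Rik and Nfib, at 5.64 ± 3.95 against 34.0 ± 4.96. Its fold enrichment was 12.7, 10.0 and 11.45 in SCR and 5.41, 5.31 and 7.28 in CPT1a_KO_Ac, while KAT2a_KO had 12.3, 11.51 and 10.7. Higher were regions of Hdac7, a class IIa histone deacetylase (13.8 ± 4.59 against 5.83 ± 2.01), Pebp4 (12.3 ± 0.60 against 2.48 ± 1.69) and Slc7a1, a transporter of cationic amino acids (12.4 ± 5.63 against 3.801 ± 3.72). With all 6 libraries, CPT1a_KO against SCR gave Emp2, a membrane protein of epithelia, as the single higher region (7.16 ± 3.87 against 1.57 ± 1.35). Lower there were Gm16867 (7.26 ± 5.00 against 23.3 ± 6.06), Trpm4, a cation channel gene (5.14 ± 4.60 against 18.9 ± 6.996), and Foxp1, a forkhead factor (5.66 ± 1.62 against 17.0 ± 8.21). The Trpm4 window shared stretches with Rpl14.

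Variable regions were spread over many genes, with 857 host genes holding 1, 256 holding 2 and 164 holding 3 or more. Of 2031 neighbouring pairs, 438 lay less than 10 kb apart. Abhd2, which encodes a lipid hydrolase, held 12 regions in 92310 bp and 0 regions called in all 12 libraries. Its regions were called in 3 to 11 libraries with median fold enrichments of 4.53 to 8.54. Myof, a ferlin of membrane repair, and Sept9, a septin of the cytoskeleton, held 9 each, with fold enrichments of 3.65 to 6.39 and 3.83 to 7.11. Nrp2 held 8, whose patterns differed. The region at chr1:62768037-62768441 was called only in the 3 KAT2a_KO libraries (4.86, 5.62 and 5.91), whereas the region at chr1:62711350-62715823, described above, was highest in SCR.

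Gm20388 had the most regions, 30, but is a gene model of 4434882 bp that spans other genes, and 29 of the regions overlapped no other protein-coding gene. In it, 7 regions lay on annotated rRNA genes of the 5S array on chromosome 8, between chr8:123555431-123555962 and chr8:123614736-123615212. The array repeats the same gene, with 51 rRNA genes annotated within Gm20388, so reads cannot be placed at one copy. These 7 had median fold enrichments of 2.62 to 3.12, well below the median of 5.14. CPT1a_KO replicates 1 and 2 called 6 and 7 of them, CPT1a_KO_Ac replicates 1 and 3 called 1 and 7, and no other library called any. They were chosen for mention after their values were seen. Fgfr2, with a model of 2960900 bp that also spans other genes, overlapped 8 regions, of which 4 lay in no other protein-coding gene. Of these, chr7:132551230-132551884 had its nearest TSS at Oat. The regions at chr7:132908194-132908573 and chr7:132908640-132909936 had theirs at Zranb1. Only chr7:130241061-130241426 was nearest to a TSS of Fgfr2 itself.

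Genes of adhesion and of the epithelial-mesenchymal transition held variable regions most often among 8 gene lists. A region lay in 18 of 33 genes of adhesion and the actin cytoskeleton (54.5%), as against 6.01% of all 21755 protein-coding genes and 18.9% of the 5000 genes longer than 50 kb. The list's genes were long, with a median of 91876 bp. Lpp, a LIM protein of focal adhesions, held 6 regions, Tns3, a tensin, held 5, and Myh9, the heavy chain of non-muscle myosin, held 4.

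Of the epithelial-mesenchymal transition list, 11 of 29 genes (37.9%) held a region. Smad3, a transducer of TGF-beta signals, held 5 regions with fold enrichments of 5.61 to 8.52, the factors Runx1 and Runx2 held 4 each, and Smad7, the inhibitory SMAD, held 3. The list of AP-1 and TEAD factors had 6 of 20 (30%), with 2 regions each in Tead1, Tead4 and Vgll4 and 1 in Wwtr1, the coactivator TAZ. Epithelial identity genes had 8 of 34 (23.5%), among them the cadherin Cdh1 with 3, and Ocln, Tfap2a and St14 with 2 each. Both Ocln regions, in the gene for the tight junction protein occludin, were called in 11 libraries. Growth factor signalling genes had 8 of 35 (22.9%). Fgfr2 overlapped the most regions, but through its long model, as described above. Src held 3, and Igf1r and Ephb4 held 2 each.

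Genes of fatty acid oxidation and of histone acetylation held variable regions about as often as all protein-coding genes (6.01%). In fatty acid oxidation and acetyl-CoA metabolism, 2 of 36 genes (5.56%) held a region, which were Ppard, a nuclear receptor for fatty acids (2 regions, 3.57 and 5.11), and Acss2, which makes acetyl-CoA from acetate (1 region, called in 3 libraries, 4.92). In histone acetylation it was 2 of 35 (5.71%), among them Hdac7 with 1 region, called in 11 libraries. None of 36 genes of the NF-kB pathway held a region, and the promoters of 27 of them were called in all 12 libraries. Their median length was 18371.5 bp, near the 17414 bp of all protein-coding genes. At a share of 6.01% few genes of such a list would hold a region, so 0 of 36 does not show a depletion.

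**Figure D5:**
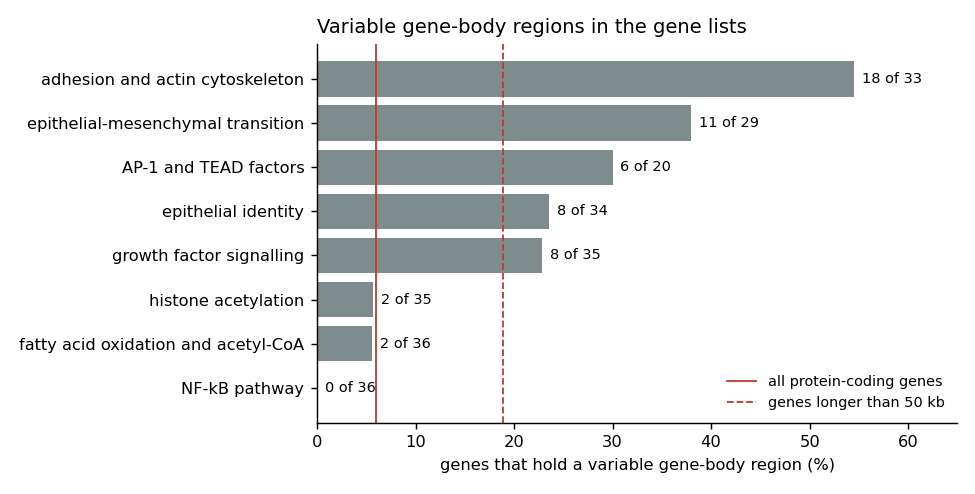
Share of the genes of each list that hold at least 1 variable gene-body region, in percent, with the number of genes beside each bar; the solid red line gives the share of all protein-coding genes (6.01%) and the dashed line that of genes longer than 50 kb (18.9%). Adhesion and actin cytoskeleton genes (median length 91876 bp) reach 54.5%, and NF-kB pathway genes (median length 18371.5 bp) are at 0 of 36.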

How the data were processed

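H3K9ac ChIPmentation peak lists of 12 libraries were analysed, 1 per library and 3 per group as given by the sample titles; the 12 input samples of the 24 in the series were not analysed here. The authors made the lists with MACS2, as deposited per library in mm10. The study's methods name BWA as the aligner, whereas the submitters' processing notes list Bowtie2 with FastQC, SAMtools and deepTools, so the aligner is uncertain. The processing notes name no versions. The notes also name dm6, and a Drosophila spike-in was not used here. The deposited fold enrichment is the ratio of summit signal to local background, with no scaling between libraries. The −log10 p and −log10 q values, also deposited, came from the peak caller (smallest −log10 q 2.00). The deposited score column was not used.

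Peaks on chromosomes 1 to 19 and X were merged at an overlap of at least 1 bp and annotated with GENCODE vM21 on GRCm38. A region in several genes was assigned to the gene that covered most of it, then to one holding the summit, and on a tie to the shortest. Fold enrichment was ranked within each library. Calling depth was recovered from fold enrichment and −log10 p, and the equal-depth alternative scaled each peak to a depth of 0.55 and kept −log10 p of 5 or more. Median ranks and log2 widths per library were compared by two-sided exact permutation tests, with Benjamini-Hochberg adjustment. The labels state no batch. Read depth is unknown, so no counting interval is given. Motifs were searched on both strands of 300 bp around the highest summit. Python 3.11.15 with numpy 2.4.6, scipy 1.17.1, pandas 2.3.3 and matplotlib 3.10.9 was used, and the scripts were tested on simulated data.

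Regions were named by their host gene: the 8 strongest called in 6 or more libraries, the 2 strongest group-specific and the 3 with the largest rank difference per comparison and direction, the 5 host genes with the most regions, up to 4 genes per list, and Cpt1a, Kat2a and Rela. Some regions and genes that the rule names are not reported here. Of the 10 sequences chosen by the rule, 7 are shown. The regions and gene lists were chosen with earlier results of these data known, and the searches for shared transcript stretches and rRNA genes were added after the sequences were seen. Alternatives were a stricter q-value, a minimum overlap of 0.5, merging within 500 bp, a TSS distance of 10 kb, equal depth, equal list length, ranks by −log10 p, a 200 bp or centred motif window, a replicate block and leaving out each library.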

Additional observations from a re-analysis of the deposited data

How the results depend on the processing

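Of 352 values recomputed under alternatives, 243 kept their direction and their side of the threshold or stayed within 1.5 times, 71 moved, 32 changed sign, 3 gained and 3 lost significance. The cause of these changes was not tested. Differences below are given as first group minus SCR unless stated, widths on the log2 scale, and counts are of regions with ranks that did not overlap. The number tested and the share of all regions are not given beside these counts, so they cannot be set against all regions. With −log10 q of 4 or more, CPT1a_KO had 9 lower regions and CPT1a_KO_Ac 1 higher than CPT1a_KO. With a peak over at least 0.5 of the region, CPT1a_KO had 0 higher and 1 lower, KAT2a_KO 4 and 37, CPT1a_KO_Ac 6 and 16, and CPT1a_KO_Ac had 3 lower than CPT1a_KO; calls of CPT1a_KO_Ac minus CPT1a_KO were -21.7 with a width of 0.32, the KAT2a_KO width was -0.27, and that of the 9 other libraries -0.28 (exact permutation p = 0.0455). Merging within 500 bp gave 0 higher for CPT1a_KO, and a distance of 10 kb gave 3 lower. Ranking by −log10 p gave 2 lower for CPT1a_KO_Ac against CPT1a_KO.

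At equal calling depth, calls differed by 135 for CPT1a_KO and 187 for CPT1a_KO_Ac; lower regions were 2 for CPT1a_KO, and higher and lower 1 and 15 for KAT2a_KO and 0 and 8 for CPT1a_KO_Ac. Widths were -0.52 for KAT2a_KO, 0.064 for CPT1a_KO_Ac against CPT1a_KO and -0.71 for the 9 others (exact permutation p = 0.0409), whose rank difference was -1.42 (exact permutation p = 0.368). With lists of equal length, calls differed by 95 for CPT1a_KO, 78.3 for CPT1a_KO_Ac and -16.7 for CPT1a_KO_Ac against CPT1a_KO; the KAT2a_KO width was -0.27, and CPT1a_KO_Ac against CPT1a_KO gave a width of 0.14 and a rank of -0.36.

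The settings of this paragraph were chosen after seeing the data. With regions called in 3 to 10 of the 11 others, higher and lower counts were 11 and 68 for CPT1a_KO, 13 and 52 for KAT2a_KO, 4 and 12 for CPT1a_KO_Ac, and 21 and 9 for CPT1a_KO_Ac against CPT1a_KO. Calls differed by 83 for CPT1a_KO and by -307 for CPT1a_KO_Ac against CPT1a_KO, whose rank difference was -0.19, and the KAT2a_KO width was -0.013. Counted without that library, 115 regions were called only in CPT1a_KO against SCR, and 91 only in CPT1a_KO against CPT1a_KO_Ac. With the 2051 regions at equal depth and no CPT1a_KO replicate 3, calls differed by 267 and -80.5, CPT1a_KO had 25 lower, CPT1a_KO_Ac had 14 higher and 6 lower than CPT1a_KO, and the 8 other libraries had a width of -0.61 (exact permutation p = 0.0485) and a rank of -1.29 (exact permutation p = 0.424).

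Leaving out each library gave calls of -624.5 to 83 for CPT1a_KO, -8.5 to 289.7 for KAT2a_KO, -380.0 to -51 for CPT1a_KO_Ac and -307 to 401 for CPT1a_KO_Ac against CPT1a_KO. Widths ran in that order from -0.25 to 0.0010, -0.093 to 0.16, -0.27 to -0.02 and -0.16 to 0.10, and from -0.20 to 0.047 for the other libraries together. Ranks ran from -18.1 to -11.4, -11.4 to -5.89, -13.9 to -8.33 and 0.18 to 6.89, and from -14.4 to -8.86 for the other libraries together. Higher counts ran from 1 to 38, 45 to 60, 32 to 40 and 0 to 68, and lower counts from 5 to 149, 138 to 182, 90 to 140 and 1 to 32. CPT1a_KO replicate 3 set the extreme in both comparisons of CPT1a_KO counts.

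Replicate numbers share only a number, since deviations from group means correlated by -0.05 to 0.08 over regions. With the replicate block, a sign-flip test whose smallest p is 0.25, rank differences of -15.3, -8.79 and -11.2 against SCR each had an exact p = 0.25, that of 4.03 for CPT1a_KO_Ac against CPT1a_KO had an exact p = 0.75, and width differences had exact p-values of 0.5 to 1.

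In 200 bp or centred windows, respectively, AP-1 was found in 4.97% and 13.7% of the variable regions, RUNX in 4.58% and 8.00% and SP/KLF in 5.31% and 8.73%. In 200 bp windows TEAD was at 10.9%, GRHL at 1.41% and CTCF at 2.49%, and in centred windows CRE was at 0.20% and NRF1 at 0.15%.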

Other observations

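Several other parent genes had more than 1 copy among the variable regions. Eif1, a translation initiation factor, and Rps2, a protein of the small ribosomal subunit, each shared stretches with 3 regions. Cox7c, a subunit of cytochrome c oxidase, Hnrnpa1, a splicing factor, and Rpl6 and Rpl27a, proteins of the large ribosomal subunit, each shared stretches with 2. Regions with the same parent share sequence and are not independent.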
